A study of Homo sapiens with 12 samples.

Results

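The difference between SLFN11-positive and SLFN11-knockout leukemia cells in their response to prexasertib was measured across the transcriptome. It was computed for each gene as the treatment difference in the parent line minus the treatment difference in the knockout line, on the log2 scale, and is called the interaction here. All 12 RNA-seq libraries of the series enter it, and 23045 of 44147 features passed a filter on low counts and were tested.

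The cells were CCRF-CEM, an established line of leukemic T lymphoblasts. The parent libraries came from the wild-type line and the others from the same line with the SLFN11 gene knocked out. The library names give the knockout line the code CB45, without saying whether that is 1 clone. No label names separate cultures behind the 3 libraries of a group, and the p-values therefore describe spread among libraries that could be technical replicates. All cells grew in the same serum-supplemented medium. The 4 groups were parent with DMSO, parent with 100 nM prexasertib for 6 h, knockout with DMSO and knockout with 100 nM prexasertib for 6 h. The series title asks about immediate early genes and SLFN11 under replication stress. RNA from whole cultures does not tell fewer cells of a kind from less RNA per cell.

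The treatment labels carry a conflict that touches every sign below. For all 12 samples, the library that the title names has its file under the opposite treatment label within that line. Files were taken from the record they are attached to, and groups are therefore called labelled DMSO and labelled prexasertib. With the library names followed instead, both responses and the interaction change sign in every gene, so that what fell under labelled prexasertib would be higher with prexasertib. The assignment of a gene to a response class, and the size of its interaction, are the same either way.

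CHK1 is the kinase that restrains origin firing and delays mitosis when DNA replication is disturbed, and prexasertib inhibits it, which leaves replication forks under stress. SLFN11 is a Schlafen family protein that is recruited to stressed forks, blocks further replication and is known for making cells sensitive to drugs that damage DNA. Immediate early genes encode transcription factors and feedback regulators that are switched on within minutes of a stimulus without new protein synthesis.

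Exonic reads summed to 47887791 to 77548202 per library. Levels are given as CPM, exonic counts scaled to library size with TMM factors. All 11 T-lymphoblast markers had a mean of at least 1 CPM, led by LCK, the proximal kinase of the T-cell receptor, at 433.6 CPM. Their sum was 1352 to 1597 CPM in parent libraries and 1624 to 1717 CPM in knockout libraries. The summed B-cell markers reached 36.0 to 45.1 CPM in parent and 56.6 to 61.6 CPM in knockout libraries, with 3 of 7 at a mean of 1 CPM or more, and no myeloid, fibroblast or erythroid marker did so. The summed epithelial markers, 2 of 5 of them at 1 CPM or more and led by EPCAM at 5.64 CPM, reached 2.24 to 3.63 CPM in parent and 10.4 to 11.95 CPM in knockout libraries. These sums differ by line, and their part in the results was not tested. The first parent library labelled prexasertib stood apart, with 23.9% of its reads outside other genes in introns against 15.8 to 19.1% in the other libraries.

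SLFN11 mRNA checks the line labels in part. Its level was 100.4, 91.2 and 95.2 CPM in the parent libraries labelled DMSO and 116.5, 118.9 and 116.7 CPM in those labelled prexasertib. The knockout libraries held 65.9, 66.6 and 69.1 CPM under labelled DMSO and 85.0, 90.7 and 89.4 CPM under labelled prexasertib. The lines did not overlap under either label, but the transcript was not lost in the knockout line, and the labels do not say which part of the gene was changed. SLFN11 itself had an interaction of -0.10 ± 0.07 (log2 ± SE), with an edgeR adjusted p of 0.387. None of the 5 tested Schlafen genes was called for the interaction.

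Of the 23045 genes, 36.3% were called for a response in the parent line (8374 genes, adjusted p by Benjamini-Hochberg 0.05 or lower) and 12.9% in the knockout line (2982 genes). Calls above and below 0 were 18.2% and 18.2% in the parent line and 6.11% and 6.83% in the knockout line. The interaction was called in 16.8% (3883 genes), above 0 in 7.32% (1686) and below 0 in 9.53% (2197). Interactions of at least 2-fold were called above 0 in 0.421% (97 genes) and below 0 in 1.38% (318 genes). Among the 14052 genes whose mean log2 CPM was 1 or more, the standard deviation of the fold change across genes was 0.43 in the parent and 0.233 in the knockout line. Spread between libraries, which was wider in the parent line, is part of both values and was not taken out. Across these genes, which are not independent replicates, the fold changes of the lines had a Pearson r of 0.555. Leaving out 1 library at a time gave 954 to 2137 genes above 0 and 1800 to 2905 below, and log2 TPM values in place of counts gave 2905 above and 1128 below.

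**Figure D1:**
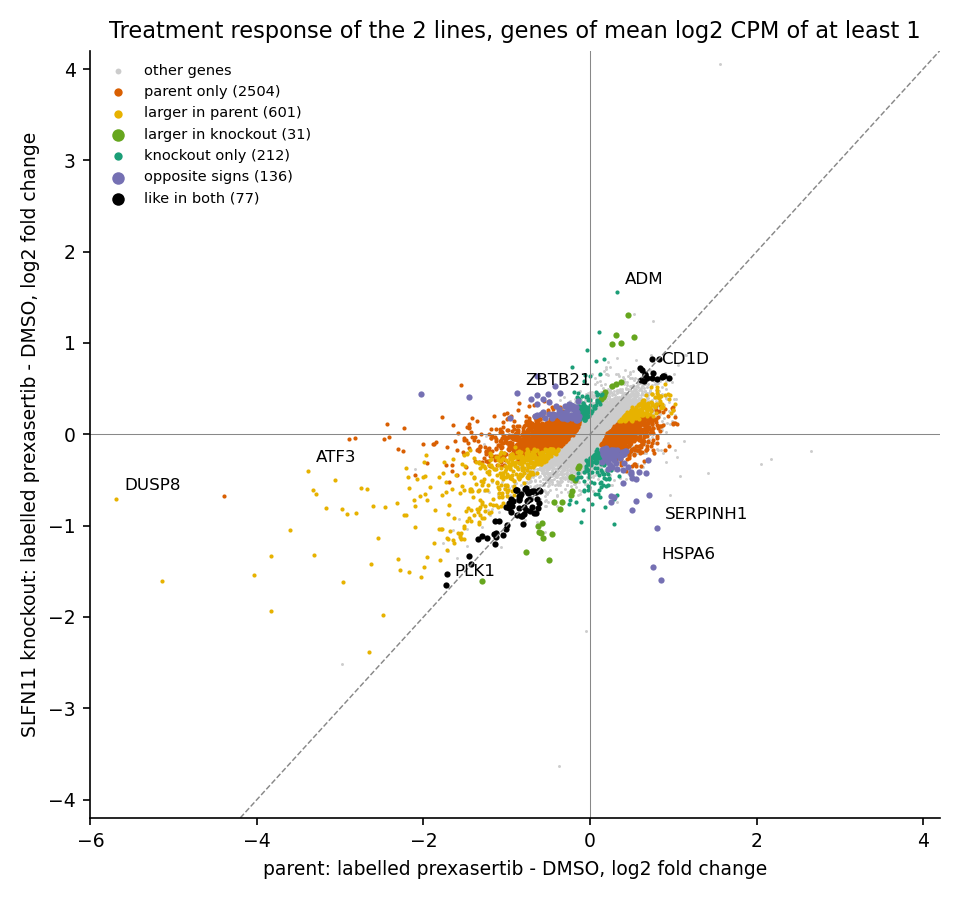
Treatment response (labelled prexasertib minus labelled DMSO, log2 fold change) of the parent line on the x axis against the SLFN11-knockout line on the y axis, 1 point per gene whose mean log2 CPM was 1 or more (14052 genes, 1 of them outside the axes), coloured by response class with the number of genes plotted. The cloud is wider along x, DUSP8 lies farthest to the left, SERPINH1 and HSPA6 lie below 0 in the knockout and above 0 in the parent line, and PLK1 and CD1D lie near the dashed line of equal response.

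Responses that differed between the lines were mostly of the kind seen in the parent line. Genotype and line coincide here, so the SLFN11 genotype cannot be told apart from other differences between the lines. Among the called interactions, 2702 genes responded in the parent line without a called response in the knockout line (11.7% of all tested), 1197 of them with an interaction above 0 and 1505 below. A further 616 genes (2.67%) responded in the same direction in both lines and further in the parent, 184 above and 432 below. The reverse was rarer, with 247 genes called in the knockout line alone (1.07%) and 31 that went the same way in both lines and further in the knockout (0.135%). Opposite directions were called in 137 genes (0.594%), and 150 (0.651%) had a called interaction with neither response called. A like response, defined as at least 1.5-fold in the same direction in both lines with a 95% interval of the interaction within 1.5-fold of 0, was found in 78 genes (0.338%).

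In the AP-1 and early transcription factor list, 15 of 22 tested members fell and 4 rose in the parent line under labelled prexasertib, and 10 fell and 4 rose in the knockout line. Of all genes tested 18.2% fell and 18.2% rose in the parent line, and 6.83% fell and 6.11% rose in the knockout line. The interaction was called below 0 in 13 list members and above 0 in 1, against 9.53% and 7.32% of all genes tested. Its median was -1.43 in the list against 0.03 over all genes tested. With log2 TPM values the list's median was -0.84, and over the settings tried 0 or 1 member was above 0. The median fold change was -1.76 in the parent and -0.15 in the knockout line. Genes named beyond the fixed rule, here and below, were picked after their values were seen.

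NR4A3, an orphan nuclear receptor induced early by many stimuli, stood at 14.3, 14.6 and 13.6 CPM in parent libraries labelled DMSO and at 1.29, 0.633 and 0.636 CPM in those labelled prexasertib. In the knockout line it read 3.11, 3.17 and 2.75 CPM and then 0.945, 1.17 and 1.00 CPM. The parent libraries labelled DMSO were thus far above the other 9, and the libraries of the lines labelled prexasertib overlapped. Its fold change was -4.04 in the parent and -1.54 in the knockout line, with an interaction of -2.50 ± 0.25 (adjusted p = 1.11e-07).

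NR4A2, its paralog, showed no such fall in the knockout line. The parent libraries went from 4.97, 4.84 and 4.54 CPM to 0.993, 0.925 and 0.700 CPM, while the knockout libraries stayed between 1.10 and 1.31 CPM under both labels. The interaction was -2.55 ± 0.24 (adjusted p = 1.75e-08). EGR1, a zinc finger factor of the serum response, had fold changes of -2.68 in the parent and -0.60 in the knockout line, and JUNB, a partner in AP-1 dimers, of -1.97 and -0.22. FOS, the other AP-1 partner, responded in both lines, at -2.97 and -1.61, with an interaction of -1.35. ATF3, a stress-induced repressor, stood at 95.8, 92.1 and 98.2 CPM in parent libraries labelled DMSO against 8.29 to 14.05 CPM in the other 9. SRF, which drives many early genes, MAFK and FOSL1 had no called interaction, with values of -0.04, -0.02 and -0.24.

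Early feedback regulators moved the same way, with the interaction below 0 in 20 of 32 tested members and above 0 in 1. The shares of all genes tested were 9.53% and 7.32%. The list's median was -0.74, or -0.41 with log2 TPM values. DUSP8, a phosphatase that switches off stress-activated MAP kinases, had the largest interaction of any gene that the rule named. Its parent libraries held 30.7, 35.2 and 32.3 CPM under labelled DMSO and 0.531, 0.617 and 0.763 CPM under labelled prexasertib. Knockout libraries ranged from 2.55 to 3.46 CPM and from 1.56 to 2.16 CPM. All 4 groups were separate, and their order between the lines turned over with the treatment label. The interaction was -4.99 ± 0.20 (adjusted p = 4.11e-15).

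RGS16, which shortens G-protein signalling, went from 25.8, 26.7 and 26.3 CPM to 2.11, 2.47 and 3.37 CPM in the parent line, against 3.15 to 3.35 CPM and 1.92 to 2.42 CPM in the knockout line. Its interaction was -2.71 ± 0.18 (adjusted p = 2.99e-11). Other MAP kinase phosphatases with an interaction below 0 included DUSP4 at -2.38, DUSP10 at -2.16, DUSP16 at -1.90 and DUSP1 at -0.75. DUSP6, which acts on ERK, was at -0.17 and not called. Members of the list also differed in class: RGS2 and IER5 fell alike in both lines on exonic reads. The falls were 1.24 and 1.14 on the log2 scale for RGS2 and 0.97 and 0.81 for IER5. On intronic reads RGS2 had a called interaction of 1.35 (edgeR adjusted p = 0.0139). PPP1R15A, which restores translation after stress, was the exception in sign on exons. It fell by 1.30 in the parent and by 1.60 in the knockout line, with an interaction of 0.31 ± 0.09 (adjusted p = 0.0223).

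Genes of the NF-kappaB pathway had 20 of 32 tested members with an interaction below 0 and none above 0. The shares of all genes tested were 9.53% and 7.32%. The list's median was -0.61. The subunits split: RELB and NFKB2 of the noncanonical arm had interactions of -2.49 and -2.04, REL and NFKB1 of -0.71 and -0.58, and RELA, the main activating subunit, -0.14 without a call. RELB stood at 30.7, 39.5 and 35.7 CPM in parent libraries labelled DMSO and at 2.76, 2.47 and 2.21 CPM in those labelled prexasertib, against 3.64 to 4.51 CPM and 1.252 to 1.84 CPM in the knockout line. The parent libraries labelled DMSO were again the high ones, and the knockout line fell as well (by 1.34 on the log2 scale, against 3.83 in the parent).

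NFKBIA, the inhibitor that NF-kappaB itself induces, fell by 1.98 in the parent and by 0.65 in the knockout line. ICAM1, an adhesion molecule, went from 10.7, 12.03 and 12.3 CPM to 1.87, 2.60 and 2.99 CPM in the parent line and from 5.53 to 5.90 CPM to 4.22 to 5.84 CPM in the knockout line, so that the lines changed places between the labels. Its interaction was -2.06 ± 0.19 (adjusted p = 1.71e-08). BIRC3, an apoptosis inhibitor and NF-kappaB target, read 72.3, 66.6 and 71.8 CPM and then 16.7, 17.8 and 17.96 CPM in the parent line, against 40.1, 40.4 and 41.6 CPM and then 27.9, 28.0 and 32.7 CPM in the knockout line. The interaction of BIRC3 was -1.54 ± 0.09 (adjusted p = 2.08e-12).

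The promoter of BIRC3 is shown because it holds 2 matches of the NF-kappaB motif, in capitals, 199 to 190 and 135 to 126 bases before the start. The 210 bases lie at chr11:102317274-102317483 of GRCh38.p14, plus strand, 5′ to 3′, from RefSeq.
BIRC3: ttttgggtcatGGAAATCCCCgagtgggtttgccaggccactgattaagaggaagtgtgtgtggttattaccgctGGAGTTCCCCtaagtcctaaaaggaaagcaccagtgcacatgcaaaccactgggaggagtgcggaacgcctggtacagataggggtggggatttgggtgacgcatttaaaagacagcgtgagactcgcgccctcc
The motif was searched by its consensus on both strands in the 250 bases before the start. It was matched in 39.3% of the 28 list members with a promoter in the RefSeq table, against 5.05% of all 27305 promoters of that length. A match is a description of these letters and not of binding.

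Growth arrest and death genes of the DNA damage response were divided. The interaction was below 0 in 10 of 28 tested members and above 0 in none, against 9.53% and 7.32% of all genes tested. The list's median was -0.12, or 0.0036 with log2 TPM values, where 2 members were above 0. CDKN1A, the inhibitor of cyclin-dependent kinases, went from 14.96, 15.19 and 14.97 CPM to 1.95, 2.05 and 2.06 CPM in the parent line while the 6 knockout libraries stayed between 6.36 and 6.89 CPM. The knockout line thus lay between the parent groups under both labels. The interaction of CDKN1A was -2.85 ± 0.13 (adjusted p = 2.31e-14). BBC3 and PMAIP1, which trigger mitochondrial apoptosis, had interactions of -2.29 and -0.99, and MCL1, which holds it back, of -0.78. BTG2, an antiproliferative p53 target, was at -2.15. TP53INP1, BAX and RPS27L, also p53 targets, had interactions of 0.21, 0.28 and 0.07 that were not called.

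Replication-dependent histone genes, whose transcripts lack poly(A) tails and accompany DNA synthesis, were the list with the largest share of calls below 0. The interaction was below 0 in 62 of 68 tested members and above 0 in none, against 9.53% and 7.32% of all genes tested. The list's median was -0.78. Of the 62 genes, 49 responded in the parent line alone, a class that held 11.7% of all genes tested. HIST1H4C, an H4 gene, read 1445, 1517 and 1524 CPM in parent libraries labelled DMSO and 748.7, 810.3 and 838.3 CPM in those labelled prexasertib, with all 6 knockout libraries between 783.9 and 849.3 CPM. HIST1H1C, a linker histone gene, had fold changes of -0.66 and 0.08. HIST2H2AA3 and HIST2H2AA4 are near-identical copies whose reads cannot be assigned with certainty, and both had interactions near -1.8 (-1.78 and -1.76).

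ATF4 targets, which answer amino acid shortage and the integrated stress response, had 10 of 21 members below 0 and 1 above, against 8 and 3 with log2 TPM values. Among them DDIT3, a factor of stress-induced death, stayed at 14.4 to 16.2 CPM in the 6 knockout libraries and fell from 46.4, 46.6 and 48.3 CPM to 17.3, 17.6 and 16.7 CPM in the parent line. Of the exonic reads of DDIT3, 17.3% lay outside other genes. ATF4 itself was at -0.11 and not called. Kinases and cyclins of transcription elongation and splicing had 8 of 22 members below 0 and none above (5 and 2 with log2 TPM values). Those below 0 included CCNL1 at -0.72, BRD2 at -0.69 and CCNT1, the cyclin of the elongation factor P-TEFb, at -0.54. The shares over all genes tested, for both lists, were 9.53% below 0 and 7.32% above.

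Among genes of the parent classes with an interaction above 0, the rule for named genes took TTYH3, an ion channel family member, LRFN1, a synaptic adhesion molecule, IL2RB, a subunit of the interleukin-2 receptor, and PLXND1, a semaphorin receptor. Among the parent libraries each was highest in the first one labelled prexasertib. TTYH3 read 50.6, 29.7 and 32.7 CPM there, against 18.4 to 22.4 CPM in parent libraries labelled DMSO and 22.1 to 29.1 CPM in the knockout line. Its interaction was 1.08 ± 0.27 (adjusted p = 0.0262), and the call was lost in 8 of 20 other settings. LRFN1 read 7.71, 5.68 and 5.94 CPM against 2.54 to 3.97 CPM in the other 9 libraries, with an interaction of 0.94 ± 0.20 (adjusted p = 0.00129). That library is the one with the high intronic share, and the part of that share in these values was not tested.

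**Figure D2:**
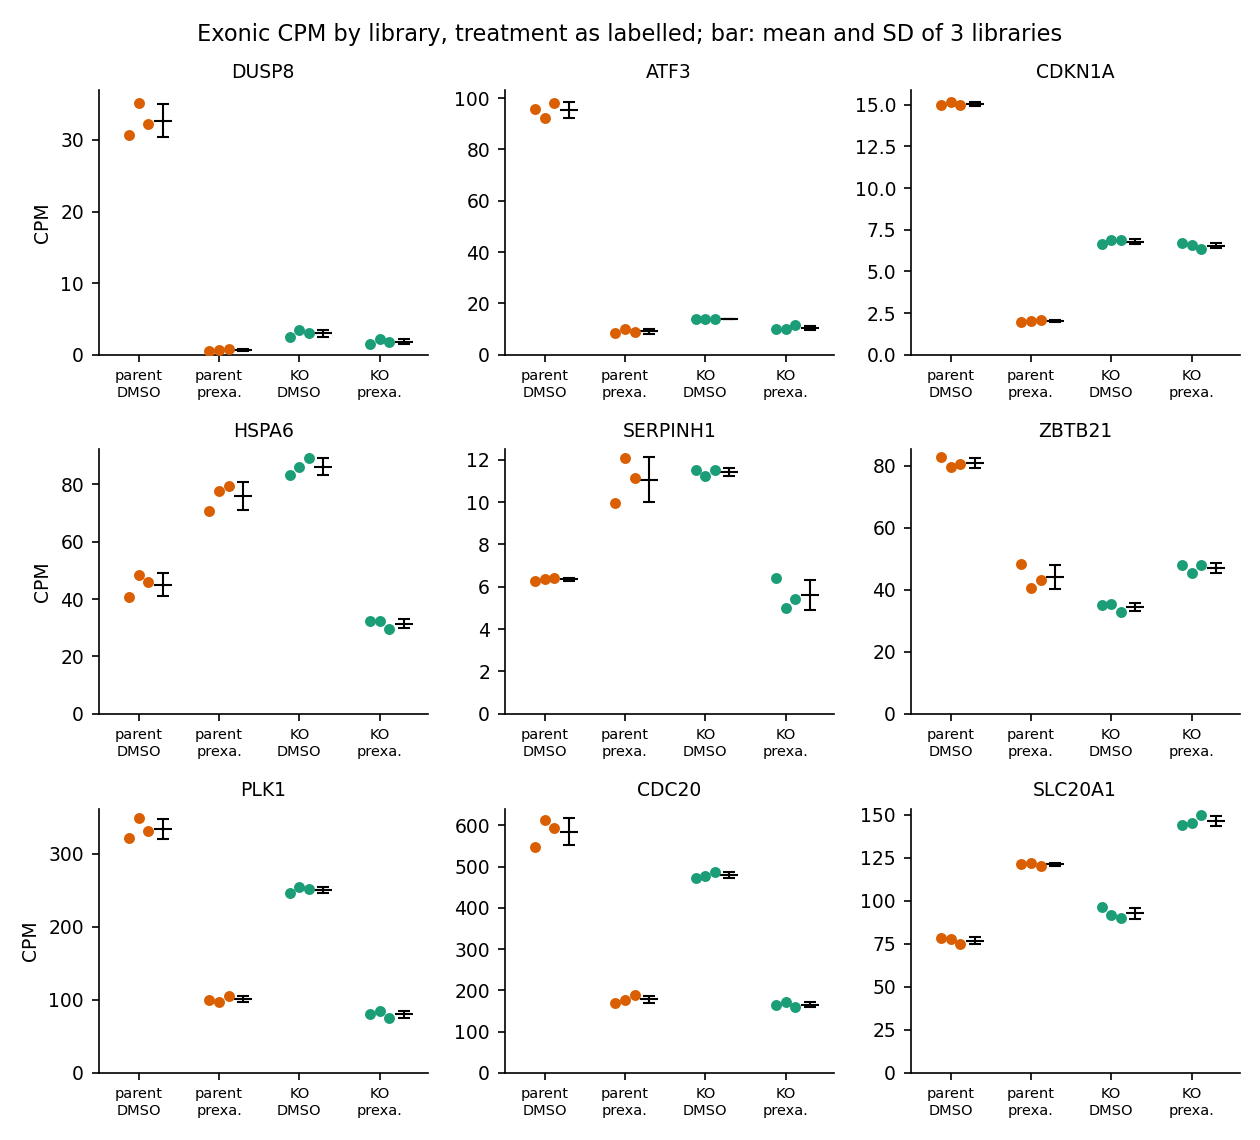
CPM on exonic reads (y axis, from 0) in each of the 12 libraries, 1 panel per gene and 1 point per library, by line and labelled treatment, with the mean and SD of 3 libraries beside the points. In the top row the parent libraries labelled DMSO stand above all others, in the middle row the order of the labels differs between the lines, and in the bottom row both lines move alike.

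Opposite responses included those of inducible heat shock genes, which rose in the parent and fell in the knockout line under labelled prexasertib. In the heat shock list 21 of 29 members rose and 4 fell in the parent line, and none rose and 13 fell in the knockout line. Of all genes tested 18.2% rose and 18.2% fell in the parent line, and 6.11% rose and 6.83% fell in the knockout line. The interaction was above 0 in 17 list members and below 0 in 2, against 7.32% and 9.53% of all genes tested. The list's median was 0.47, and 7 members were called in opposite directions, against 0.594% of all. These chaperones, driven by heat shock factor HSF1, keep proteins folded during stress.

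HSPA6, a strictly inducible HSP70, read 40.6, 48.5 and 45.8 CPM in parent libraries labelled DMSO and 70.6, 77.7 and 79.6 CPM in those labelled prexasertib. In the knockout line it read 83.3, 86.1 and 89.2 CPM and then 32.3, 32.4 and 29.5 CPM. No groups overlapped, and the label with the higher level differed between the lines. The fold changes were 0.76 and -1.46, and the interaction was 2.21 ± 0.09 (adjusted p = 4.11e-15). Of its exonic reads 0.0% lay outside other genes, so its counts are shared with an overlapping gene and are uncertain. Its likeness to the near-identical neighbour HSPA7 is a separate uncertainty that this share does not measure.

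SERPINH1, the collagen chaperone of the endoplasmic reticulum and an HSF1 target, rose from 6.26, 6.36 and 6.43 CPM to 9.95, 12.1 and 11.15 CPM in the parent line and fell from 11.5, 11.22 and 11.5 CPM to 6.42, 5.01 and 5.42 CPM in the knockout line. The knockout group under labelled DMSO lay within the range of the parent group under labelled prexasertib. The other pair overlapped only in the library at 6.42 CPM. Its interaction was 1.82 ± 0.14 (adjusted p = 4.51e-10). DNAJB1, the HSP40 partner of HSP70, had fold changes of 0.70 and -0.28, and HSPB1, a small heat shock protein, of 0.31 and -0.32.

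Other members, 10 in all, had a called interaction with a response in the parent line alone. HSP90AA1, a cytosolic HSP90, went from 1498, 1458 and 1442 CPM to 2313, 2072 and 2066 CPM in the parent line, while the knockout line held 2366, 2325 and 2235 CPM and then 2141, 2042 and 2175 CPM. The parent libraries labelled DMSO were the low ones. HSPA8 and HSPH1 had interactions of 0.57 and 0.68 in the same direction. The members below 0 were DNAJB2, a J-protein known best in neurons, at -1.02 and the heat shock factor HSF2 at -0.26, and over the settings tried 1 or 2 members were below 0. HSP90AB1 and HSF1 had no called interaction, at 0.11 and 0.15.

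The promoters of HSPA6 and SERPINH1 are shown because both hold the same element, in capitals, at nearly the same distance from the start. It lies 74 to 62 bases before the start of HSPA6 (chr1:161524420-161524539) and 76 to 64 bases before that of SERPINH1 (chr11:75562133-75562252). Each window is the 120 bases before the start on the plus strand of GRCh38.p14, from RefSeq, 5′ to 3′.
HSPA6: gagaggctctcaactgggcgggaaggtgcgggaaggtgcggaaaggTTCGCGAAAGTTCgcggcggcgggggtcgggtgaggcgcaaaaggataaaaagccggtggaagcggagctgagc
SERPINH1: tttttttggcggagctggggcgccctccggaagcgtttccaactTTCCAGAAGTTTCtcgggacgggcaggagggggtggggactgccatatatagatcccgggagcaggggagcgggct
The heat shock element was searched as GAANNTTCNNGAA and its reverse complement TTCNNGAANNTTC within 250 bases before the start. It was matched in 20.0% of the 25 list members with a promoter in the table, against 0.44% of all 27305 promoters and 0.35% of the 11273 of tested genes. The other matches in the list were HSPA8, DNAJB6 and CHORDC1. No match in this window says only that these letters are not in it.

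Intronic reads, which come mostly from RNA not yet spliced, carried the heat shock difference as well. Over all genes the intronic interaction was called in 9.92% of 15663 tested, above 0 in 4.77% and below 0 in 5.15%. In the heat shock list it was above 0 in 17 of 24 tested members and below 0 in none, with a median of 0.76. Other lists followed their exonic calls to differing degrees. Below 0 on introns were 12 of 12 tested histone genes, 11 of 30 NF-kappaB genes and 4 of 17 AP-1 and early factors. Only these 12 of the 68 histone genes tested on exons could be tested on introns. The source of their intronic reads was not examined, so they are not read as unspliced RNA. Elongation and splicing kinases had 3 of 21 above 0 and 1 below, and the hypoxia list 1 of 28 above and 4 below. BAG3, a cochaperone of HSP70, had an intronic interaction of 1.45 with an exonic one of 0.28 that was not called. HSPA4 and DNAJA1 likewise were called on introns, at 0.62 and 0.64, and not on exons.

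Other opposite genes fell in the parent and rose in the knockout line. ZBTB21, a zinc finger repressor, read 82.8, 79.6 and 80.6 CPM in parent libraries labelled DMSO and 48.3, 40.7 and 43.3 CPM in those labelled prexasertib, against 35.1, 35.4 and 32.8 CPM and then 48.0, 45.3 and 48.0 CPM in the knockout line. The lines differed under labelled DMSO and overlapped under labelled prexasertib. Its interaction was -1.33 ± 0.08 (adjusted p = 1.12e-11).

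KLF10, a TGF-beta inducible repressor, was the early transcription factor in this class, with fold changes of -1.45 and 0.41 and an interaction of -1.86 ± 0.10 (adjusted p = 4.86e-13). HES1, the Notch target that keeps T-lineage cells immature, went from 69.6, 72.0 and 66.8 CPM to 50.5, 56.1 and 55.8 CPM in the parent line and from 64.2, 66.3 and 61.9 CPM to 89.2, 90.5 and 84.0 CPM in the knockout line. HES4, another Notch target, had fold changes of -0.41 and 0.31. SLC2A3, a glucose transporter, read 43.3 to 46.5 CPM and then 31.5 to 35.3 CPM in the parent line, against 24.9 to 26.4 CPM and then 36.0 to 38.1 CPM in the knockout line. FAM111B, a protease of replicating cells, had an interaction of -0.94. SLC2A14 and NBPF16, at -1.27 and -1.07, belong to families with near-identical copies and are uncertain.

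**Figure D3:**
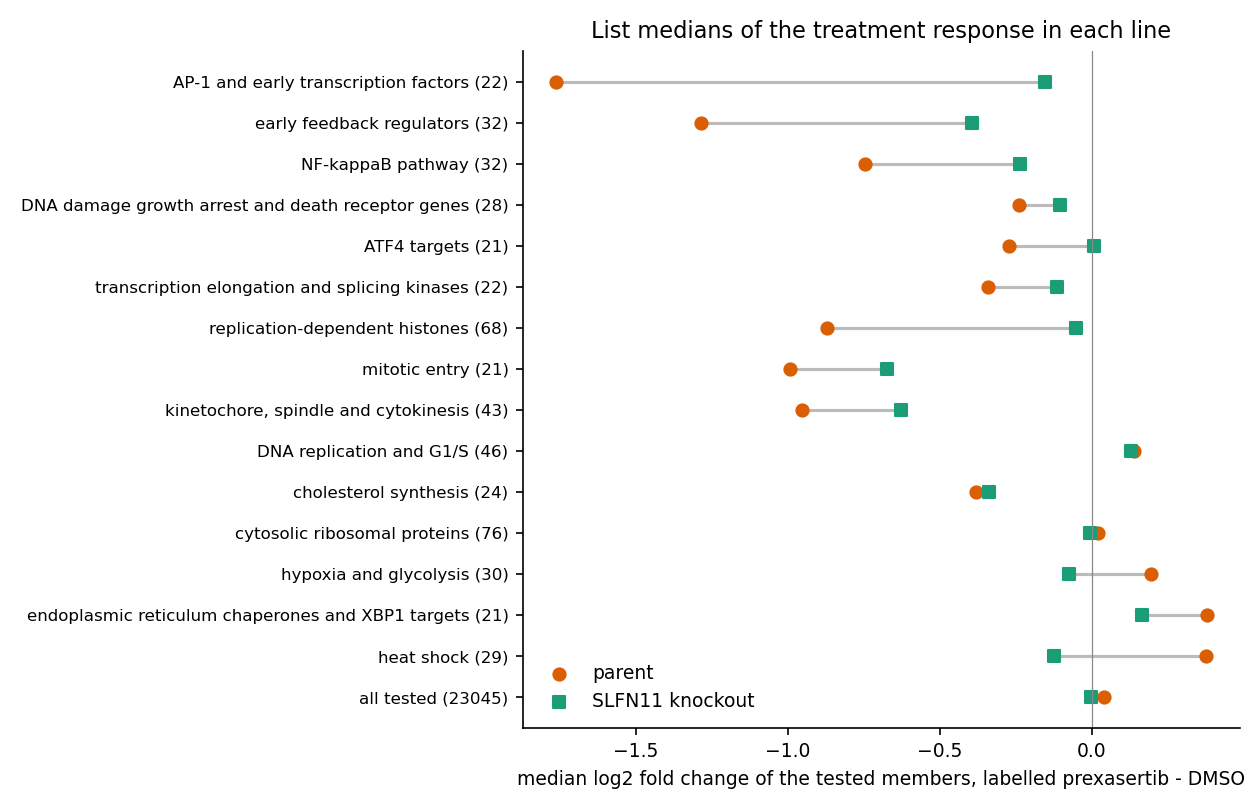
Median log2 fold change (labelled prexasertib minus labelled DMSO, x axis) over the tested members of each gene list (y axis, number of members in brackets) in the parent line (circles) and the SLFN11-knockout line (squares). The distance between the symbols is widest for AP-1 and early transcription factors (-1.76 and -0.15), the heat shock medians lie on either side of 0 (0.38 and -0.12), and the cholesterol and ribosomal protein medians nearly coincide.

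Hypoxia and glycolysis genes did not move as a block. Of 30 tested members 6 were called in opposite directions. The interaction was above 0 in 12 and below 0 in 5, against 7.32% and 9.53% of all genes tested. On all reads, exonic and intronic together, 5 were above 0, and with log2 TPM values 18. Those above 0 included the enzymes PGAM1 at 0.48, PGK1 at 0.38, TPI1 at 0.33 and LDHA at 0.29. Those below 0 were ADM, SLC2A3, VEGFA, ANKRD37 and PFKFB3, the last an activator of glycolysis, with fold changes of -0.25 and 0.34.

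A response that was larger in the knockout line, or called there alone, was seen in some of these genes and in others. ADM, a vasodilator peptide, read 3.09, 3.42 and 3.83 CPM and then 3.61, 4.29 and 5.004 CPM in the parent line, against 2.37, 3.05 and 2.23 CPM and then 7.56, 7.95 and 6.99 CPM in the knockout line. The knockout libraries labelled prexasertib were above all others. The fold changes were 0.32 and 1.56, with an interaction of -1.24 ± 0.19 (adjusted p = 5.13e-05).

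BHLHE40, a hypoxia-inducible repressor that also acts on the clock, rose from 10.6, 10.8 and 9.71 CPM to 14.4, 14.5 and 13.8 CPM in the parent line and from 11.4, 11.18 and 11.6 CPM to 27.1, 29.5 and 27.6 CPM in the knockout line. Its interaction was -0.85 ± 0.10 (adjusted p = 5.38e-07). VEGFA, the angiogenic growth factor, rose by 0.26 and 0.99 with an interaction of -0.72 ± 0.08 (adjusted p = 5.43e-07). In the other direction PCDH12 and FAM222A had interactions of 0.98 and 0.85. Among DNA replication genes the knockout-only class held E2F7, a repressor of the cell cycle, at -0.59, and CCNE1, CDC6 and POLA2, at -0.39, -0.26 and -0.24.

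Like responses in both lines were mostly falls under labelled prexasertib. Of the 78 like genes, 61 were lower and 17 higher, and 10 belonged to the mitotic lists. Some of the 78 overlap another gene and may share its reads, such as CTD-2636A23.2 with HMGCS1. On reads outside other genes 56 were like, 49 of them among the 78. PLK1, the kinase that drives mitotic entry, read 321.9, 348.5 and 331.3 CPM and then 100.2, 97.5 and 105.2 CPM in the parent line, against 246.2, 254.2 and 252.1 CPM and then 81.0, 84.6 and 74.8 CPM in the knockout line. The lines fell by 1.73 and 1.65 on the log2 scale. The interaction of PLK1 was -0.08 with a 95% interval from -0.23 to 0.07.

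CDC20, the activator of the anaphase-promoting complex, fell by 1.72 and 1.53, with an interaction of -0.19 and an interval from -0.34 to -0.03. Its adjusted p was 0.097, and it was called in 5 of 20 other settings. CCNB1, the mitotic cyclin, went from 412.7, 404.1 and 406.1 CPM to 172.5, 194.8 and 190.5 CPM in the parent line and from 447.0, 432.8 and 454.1 CPM to 201.9, 200.4 and 209.8 CPM in the knockout line. Its interaction was -0.01 with an interval from -0.16 to 0.14. CCNF, CDCA8, a chromosomal passenger protein, and FAM64A, a mitotic regulator, were also like, with interactions of -0.00, -0.12 and -0.01.

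Most mitotic genes fell in both lines, many of them further in the parent. Over the mitotic entry and kinetochore lists together, 57 of 64 tested members fell in the parent line and 53 in the knockout line, and the same 53 in both. Falls were called in 18.2% of all genes tested in the parent and 6.83% in the knockout line. The interaction was below 0 in 38 of the 64, and 35 were larger in the parent and 10 like. Over all genes tested these shares were 9.53%, 2.67% and 0.338%. Over the settings tried, 9 to 11 of 21 mitotic entry and 19 to 33 of 43 kinetochore list members were below 0. The medians were -0.97 in the parent, -0.65 in the knockout line and -0.32 for the interaction. With log2 TPM values the interaction medians were -0.16 for mitotic entry and -0.21 for kinetochore, spindle and cytokinesis, against -0.29 and -0.35 on counts. NDC80, the kinetochore's microtubule coupler, read 251.6, 238.8 and 259.7 CPM and then 65.2, 70.5 and 71.2 CPM in the parent line, against 140.5, 136.2 and 137.5 CPM and then 77.3, 76.7 and 79.4 CPM in the knockout line. Its interaction was -1.03 ± 0.07 (adjusted p = 6.07e-11). HMMR, a spindle-binding receptor, fell by 1.78 and 1.04, and CCNB2, the second mitotic cyclin, by 1.34 and 0.96.

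Promoters of both kinds of mitotic gene are shown because they hold the same elements, a CHR (TTTGAA or its reverse complement TTCAAA) and CCAAT boxes (CCAAT or ATTGG), in capitals. PLK1 (chr16:23678769-23678888) and CDC20 (chr1:43358861-43358980) responded alike in both lines, and CCNB2 (chr15:59105026-59105145) and HMMR (chr5:163460512-163460631) further in the parent. Each window is the 120 bases before the start on the plus strand of GRCh38.p14, from RefSeq, 5′ to 3′.
PLK1: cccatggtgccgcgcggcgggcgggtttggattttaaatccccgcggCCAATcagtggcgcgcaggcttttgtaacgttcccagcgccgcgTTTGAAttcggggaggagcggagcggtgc
CDC20: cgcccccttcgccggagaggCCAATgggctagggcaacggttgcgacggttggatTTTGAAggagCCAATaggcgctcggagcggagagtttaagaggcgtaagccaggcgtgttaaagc
CCNB2: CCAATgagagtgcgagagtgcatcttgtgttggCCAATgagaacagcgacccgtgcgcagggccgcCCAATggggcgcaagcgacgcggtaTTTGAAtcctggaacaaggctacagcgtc
HMMR: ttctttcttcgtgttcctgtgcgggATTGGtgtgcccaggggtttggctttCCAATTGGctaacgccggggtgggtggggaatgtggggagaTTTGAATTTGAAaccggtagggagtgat
In HMMR the CCAAT boxes 69 to 65 and 66 to 62 bases before the start overlap as a match on each strand. A CHR was matched within 250 bases before the start in 70.0% of the 10 like mitotic genes and in 55.6% of the 27 mitotic genes that were larger in the parent and have a promoter in the table, against 13.6% of all 27305 promoters. CCAAT boxes were matched in 90.0% and 74.1%, against 33.0% of all. The difference between the kinds of gene was not tested.

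Genes outside the mitotic lists also responded alike. Of the cholesterol synthesis list, HMGCS1, the enzyme at the start of the pathway, went from 249.6, 236.4 and 235.4 CPM to 141.3, 144.3 and 144.3 CPM in the parent line and from 302.3, 291.7 and 287.9 CPM to 188.8, 182.2 and 192.8 CPM in the knockout line. Its interaction was -0.10 with an interval from -0.24 to 0.04. MVK, the mevalonate kinase, was also like, at 0.08. Other enzymes of the pathway differed from these. LSS, which closes the sterol ring, rose by 0.49 in the parent and fell by 0.41 in the knockout line, and FDPS was called in opposite directions as well. Of all genes tested, 7.32% had a called interaction above 0 and 9.53% below. The list had 7 of 24 members above 0 and 5 below, against 2 and 1 on all reads and 10 and 1 with log2 TPM values. Without parent replicate 1 labelled DMSO, any 1 knockout library labelled DMSO or knockout replicate 3 labelled prexasertib, 4 were above 0, and without replicate 3 of either line labelled DMSO 3 were below. The median of 0.10 ranged from 0.05 to 0.23.

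Of the like genes that were higher under labelled prexasertib, CCNE2, a cyclin of S-phase entry, read 36.4, 33.4 and 33.8 CPM and then 55.8, 64.1 and 63.4 CPM in the parent line, against 53.3, 53.6 and 52.3 CPM and then 91.1, 89.1 and 102.3 CPM in the knockout line. SLC20A1, a phosphate transporter, rose by 0.66 in each line, with an interval of the interaction from -0.14 to 0.14. CD1D, which presents lipids to T cells, rose by 0.75 and 0.68, and CXXC5, a zinc finger regulator of Wnt signalling, by 0.87 and 0.63 with an interval from 0.01 to 0.47. Cytosolic ribosomal protein genes, with 76 tested, had 1 interaction above 0 and none below, and mitochondrially encoded mRNAs had none called of 13. With log2 TPM values in place of counts, 30 of the ribosomal protein genes were called above 0, and 9 were without the first parent library labelled prexasertib.

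An interaction can rest on a line difference under either treatment label, and the comparisons of the lines share all their libraries with the interaction, so their values are given side by side. Knockout and parent differed in 40.0% of genes under labelled DMSO (the knockout higher in 19.6% and lower in 20.4%) and in 28.1% under labelled prexasertib (14.5% and 13.5%). Of the 318 genes with an interaction of at least 2-fold below 0, the lines differed under labelled DMSO alone in 193, with the knockout lower in all 193, under labelled prexasertib alone in 32, under both in 84 and under neither in 9. The interaction equals the line difference under labelled DMSO minus that under labelled prexasertib. Choosing genes by its sign and size therefore largely sets these directions, and they are not a separate result. The median size of the line difference was 1.29 under labelled DMSO and 0.35 under labelled prexasertib. Of the 97 genes above 0, the lines differed under labelled DMSO alone in 33, under labelled prexasertib alone in 33, under both in 17 and under neither in 14, with median sizes of 0.75 and 0.85.

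**Figure D4:**
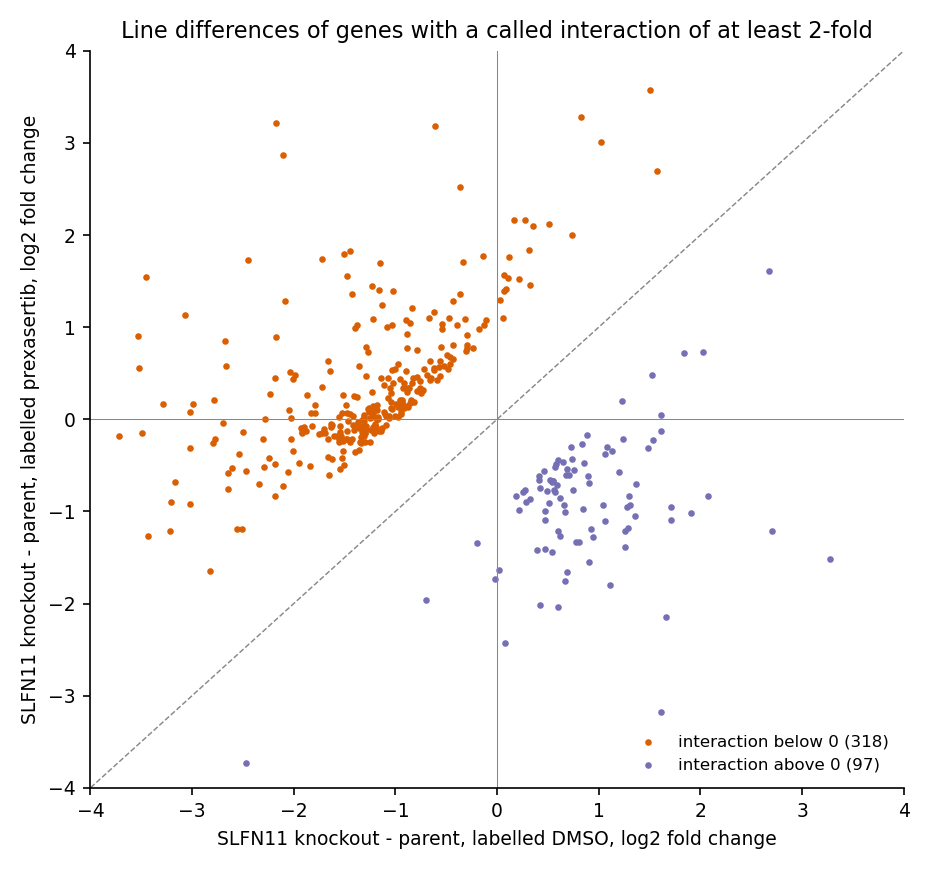
Difference between the lines (SLFN11 knockout minus parent, log2 fold change) under labelled DMSO on the x axis and under labelled prexasertib on the y axis, 1 point per gene with a called interaction of at least 2-fold (415 genes, 22 of them outside the axes). Genes with an interaction below 0 lie mostly left of 0 on x and near 0 on y, and those above 0 lie mostly right of 0 on x and below 0 on y. The side of the dashed line of equal difference on which a gene lies is set by the sign of its interaction.

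The intronic reads of the same libraries give a readout that the exonic counts do not use. Of 3883 genes with a called exonic interaction, 3126 were tested on introns, 624 were called in the same direction and 35 in the opposite one, and 74.6% had the same sign. Among genes of at least 2-fold below 0, 94 of 203 were called in the same direction and none in the opposite one. Among those of at least 2-fold above 0 it was 5 of 31. Like genes, which have no called exonic interaction, were tested on introns in 55 of 78 cases. An intronic interaction was called in 7 with the sign of the exonic value and in 3 with the other sign, against 9.92% of all genes tested on introns. Across 10861 genes, which are not independent replicates, the exonic and intronic interactions had a Pearson r of 0.44.

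Single genes differed in how far introns followed exons. DUSP8 had an intronic interaction of -4.24 (adjusted p = 7.8e-13), NR4A3 of -2.47 and RELB of -1.34. MCL1, with -0.78 on exons, was at 0.06 on introns without a call, and SLC3A2, an amino acid transporter subunit, was at -0.61 and -0.06. Of the like genes, CDCA8 was called on introns at -0.47 and HMGCS1 at 0.31, while PLK1 was at -0.01 without a call. Genes without introns, such as JUN, have no such value.

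**Figure D5:**
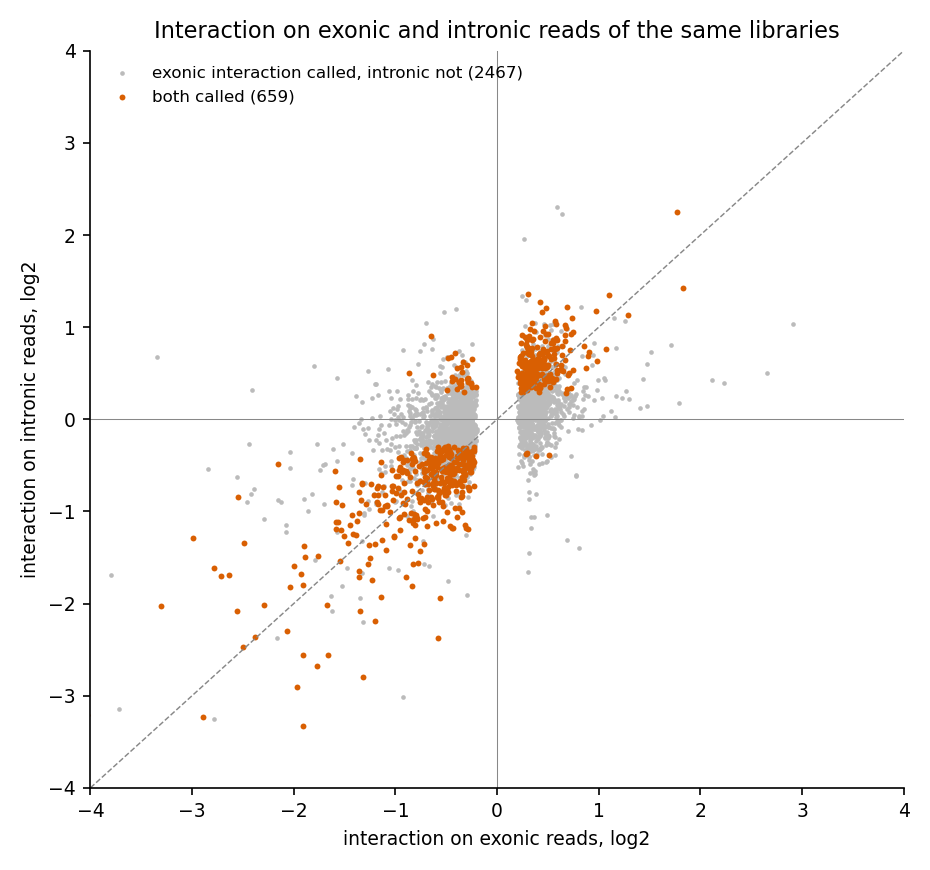
Interaction on exonic reads (x axis, log2) against the interaction on intronic reads of the same libraries (y axis, log2) for the 3126 genes with a called exonic interaction and a test on introns (13 of them outside the axes). The 659 genes called on both lie mostly in the lower left and upper right of the plot, and 35 of them have opposite signs.

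Position and length of genes were described over the calls. Against 16.8% of all genes tested, 21.6% of 1682 genes on chromosome 19 had a called interaction. On chromosome 6, which holds the large histone cluster, it was 21.3% of 1150, and the part of histone genes in that share was not tested. Chromosome 20 had 19.97% and the X chromosome 13.3%. Zinc finger genes with ZNF symbols on chromosome 19 had 123 of 247 below 0 and 2 above, and those elsewhere 93 of 249 below 0 and 6 above. The other 1435 genes of chromosome 19 had 92 below 0 and 146 above. Among protein-coding genes whose mean log2 CPM was 1 or more, the share above 0 was 15.7% under 5 kb and 5.30% at 300 kb or more. The share below 0 was 15.5% and 9.60%. In between it was 14.15% from 5 to 20 kb and 17.75% from 50 to 100 kb, so it did not fall steadily with length.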

How the data were processed

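RNA-seq of 12 libraries was used. Per the submitters' processing notes the build was hg19 and the tools were STAR 2.5.4a, Picard 2.9.2, Trimmomatic 0.39 and Trim Galore 0.6.2, with no settings. The counter, annotation and strand setting are not given in the sources used here, so overlapping and antisense genes cannot be told apart. Per the file headers, each deposited file holds read counts per gene (exonic, intronic and outside other genes) and TPM computed by the authors. Genes missing from a file were taken as 0, and 36 pseudoautosomal copies on chromosome Y were dropped. Within groups, chi-square per degree of freedom was 4.54 to 38.05, so no libraries agreed within sampling noise. The first parent library labelled prexasertib gave 38.05 and 32.47 against the others of its group. Pairs within the knockout groups gave 4.54 to 7.8.

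Deposited exonic counts were tested with edgeR 4.0.16 in R 4.3.3 (filterByExpr with a minimum count of 10, TMM, 1 model of 4 group means, robust quasi-likelihood F test, Benjamini-Hochberg adjustment). The error given is the absolute fold change over the square root of F. The test on introns used intronic reads outside other genes. DESeq2 1.42.0, limma 3.58.1 on log2(TPM + 1) and the settings of the closing section are alternatives. The script was tested on simulated data. Lists, classes and genes were chosen with earlier results of these data known. The 76 named genes were, per sign, the 4 largest interactions of the parent classes, 3 of the knockout classes, the 4 opposite and 4 like genes with the largest smaller response, all of these protein coding, not replication-dependent histone genes, at a mean log2 CPM of 1 or more and with at least 50% of exonic reads outside other genes. Without those filters were added the 2 smallest p of each list other than marker, ribosomal protein and mitochondrial lists, and SLFN11. Some named genes are not reported here. Promoters are from RefSeq, GRCh38.p14.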

Additional observations from a re-analysis of the deposited data

Results flagged for a closer look

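The test of the difference between the lines was passed by 1686 genes above 0 and 2197 below 0, together 16.8% of those tested. It was also passed by 66 of the 76 genes that the naming rule took. Most of these were picked from called classes or for a small p, so that count was largely set by the rule. The 137 genes called in opposite directions in the 2 lines include 14 of those named. Heat shock genes among them had interactions of 2.21 for HSPA6, 1.82 for SERPINH1, 1.38 for HSPA1A and 1.33 for HSPA1B, the last a near-identical copy of HSPA1A. TNFSF14, a TNF family cytokine, was at 1.10, and the sterol enzyme LSS at 0.90. BST2, an interferon-stimulated gene, had 0.48 on exons and 1.21 on introns. Below 0 were ZBTB21 at -1.33, SLC2A14 at -1.27, NBPF16 at -1.07, SLC2A3 at -0.95, FAM111B at -0.94 and HES1 at -0.82.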

How the results depend on the processing

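The naming rule picked most of the 76 genes by size or p in the same libraries, so their stability does not extend to all genes. They had 1518 refits over 20 settings other than the exchange of files. Of these refits, 1496 kept the side of the threshold and, where called, the direction. A further 16 lost the call, 6 gained it and none changed sign with a call. TTYH3 lost it in 8 leave-one-out settings, all but those without a parent library labelled prexasertib and without the second parent library labelled DMSO.

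With files taken by library name every sign changed, which gave 318 genes at least 2-fold above 0 and 97 below. Log2(TPM + 1) moved the median by 0.11 and gave 2905 genes above 0 (43 at least 2-fold) and 1128 below (101), or 72.0% above. At least 2-fold above 0 were 30 genes at a mean CPM of at least 1 and 46 on reads outside other genes. All reads gave 19 genes larger in the knockout and 84 opposite. Without the filter, 1201 genes were above 0 on introns. All intronic reads, chosen after seeing the data, stayed within 1.5 times. The cause was not tested.

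Leaving out 1 library gave 954 to 2137 genes above 0, 53 to 141 of them at least 2-fold, and 1800 to 2905 below, 291 to 379 at least 2-fold. Classes ranged over 2151 to 3059 parent only, 368 to 965 larger in parent, 14 to 58 larger in knockout, 135 to 475 knockout only, 57 to 284 opposite, 81 to 201 with neither called and 70 to 84 like. On introns 431 to 1143 were above 0 and 527 to 1193 below. Beyond 1.5 times, genes above 0 were 954 without the first parent library labelled DMSO, 1023 and 1017 without the first and second knockout libraries labelled DMSO, and 1069 without knockout replicate 3 labelled prexasertib. Without the first parent library labelled prexasertib, which has the high intronic share, 965 were larger in parent, 475 knockout only, 58 larger in knockout and 284 opposite. At least 2-fold above 0 were 53 without knockout replicate 2 labelled DMSO and 59 without knockout replicate 3 labelled prexasertib. Knockout-only genes were 139 and 150 without knockout replicates 2 and 3 labelled DMSO and 135 without knockout replicate 3 labelled prexasertib. Genes larger in parent were 387 without knockout replicate 3 labelled DMSO and 368 without knockout replicate 1 labelled prexasertib, and those with neither called 95 and 81 without knockout replicate 2 labelled DMSO and replicate 3 labelled prexasertib. Genes larger in knockout were 14 to 19 without each of 9 other libraries. On introns, genes above 0 were 494 and 454 without parent replicates 2 and 3 labelled DMSO, 1143 without parent replicate 3 labelled prexasertib, 459 and 431 without knockout replicates 1 and 2 labelled DMSO, and 479 and 439 without knockout replicates 2 and 3 labelled prexasertib. Genes below 0 on introns were 527 without knockout replicate 1 labelled DMSO. Opposite genes were 89 without parent replicate 3 labelled DMSO, 72 and 57 without knockout replicates 2 and 3 labelled DMSO, and 74 and 80 without knockout replicates 1 and 3 labelled prexasertib.

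Same-numbered samples did not deviate together, with correlations of -0.172 to 0.136 over 18 pairs, so the numbers were not taken as pairing. With the replicate number as a block, 3956 genes were called, 1745 above and 2211 below, with 140 opposite and 78 like.

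Depth limits low genes: FOSL1, under 1 CPM in every library, had an interaction with a 95% interval from -1.05 to 0.57.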
